A study of Mus musculus with 6 samples.

Results

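The enzymes of glycolysis and of the citric acid cycle were examined in islets of Langerhans from mice without the farnesoid X receptor (FXR, gene *Nr1h4*) and from wild-type mice. The 39 members were the rows of the gene count table whose symbol belongs to a fixed list of enzymes of these pathways, out of 19342 genes. All 39 passed the filter on low counts, which 14619 genes passed in all. RNA-seq of poly(A)-selected RNA was carried out on islets isolated from the pancreas of FXR+/+ (wild-type) and FXR-/- (knockout) mice aged 3 months, with 3 libraries a genotype, named here female 1, male 1 and male 2. The knockout mice were described as C57Bl/6, and the part of *Nr1h4* that the allele lacks, the source of the wild-type mice and the number of mice behind a library were not given in the sources used here. P-values therefore measure the spread between these libraries. The comparison asks which transcripts differ between islets with and without FXR.

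Glycolysis splits glucose into pyruvate in the cytosol, first consuming ATP in a preparatory phase and then yielding ATP and NADH in a payoff phase. Pyruvate enters mitochondria and is oxidised to acetyl-CoA by the pyruvate dehydrogenase complex or carboxylated to oxaloacetate by pyruvate carboxylase, and the citric acid cycle oxidises acetyl-CoA. In beta cells this chain turns the glucose level into ATP, which closes potassium channels and triggers insulin release, and shuttles carry the NADH of glycolysis into mitochondria because lactate production is low.

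The libraries held 20629306 to 30139235 gene counts. Counts of *Nr1h4* were 333, 274 and 386 in the FXR+/+ libraries (female 1, male 1, male 2) against 140, 145 and 138 in FXR-/-, so transcripts assigned to it were lower but present in every FXR-/- library. The 9 beta cell markers summed to 19.5% to 23.1% of normalised counts in FXR+/+ and 18.8% to 27.2% in FXR-/-, and all 9 were tested. The 22 markers of acinar cells, which make digestive enzymes, held 4.65% to 13.1% of gene counts in FXR+/+ and 6.91% to 13.6% in FXR-/-. No acinar marker was at 0 in all libraries. In tissue RNA, fewer cells of a type and less RNA per cell cannot be told apart.

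No enzyme of either pathway passed the test. With edgeR's quasi-likelihood test, with sex as a term and Benjamini-Hochberg adjustment over all tested genes, 0 of 39 members had an adjusted p under 0.05, beside 0% of the 14619 tested genes. DESeq2 called 0 of 39 members and 1.06% of its tested genes, and edgeR with the replicate number as a block called 0 of 39 and 0.157% of genes. The lowest adjusted p of a member was 0.458 in edgeR, 0.231 with the block and 0.272 in DESeq2. Over all tested genes the lowest in edgeR was 0.129. The targeted gene *Nr1h4* did not pass either, with a log2 fold change of -1.07 and an adjusted p of 0.217 (edgeR). At an unadjusted p under 0.05, 1 member (*Pfkp*, 2.56%) was higher in FXR-/-, beside 6.18% of all tested genes, and 0 members were lower, beside 4.15% of all tested genes. With the block, 3 members (*Pfkp*, *Pcx* and *Pdk4*, 7.69%) were higher at that level, beside 9.83% of all tested genes, and in DESeq2 *Pfkp*, *Pkm* and *Pcx* were (7.69%), beside 5.03% of its tested genes.

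The 95% interval of the fold change lay within 1.5-fold in either direction for 35 of the 39 members. The exceptions were *Pfkp* and *Pdk4*, whose intervals reached 1.52-fold and 1.93-fold higher in FXR-/-, and *Aldoc* and *Eno1*, whose intervals reached down to ratios of 0.642 and 0.557. The median standard error of a log2 fold change was 0.091 for the members and 0.13 for all tested genes.

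The median log2 fold change of the 39 members (FXR-/- over FXR+/+) was 0.03, with 22 above 0 and 17 below, beside 0.01 for all tested genes. When the libraries were scaled by library size alone, the median of the members was -0.06 and that of all tested genes -0.09. In the pairs of libraries with the same number, the median of the members was -0.01 for female 1, 0.08 for male 1 and 0.04 for male 2. Of the members, 11 (28.2%) were higher in FXR-/- in all 3 pairs, beside 20.4% of tested genes, and 5 (12.8%) were lower in all 3 pairs, beside 18.9%.

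The levels of 4 members did not overlap between the genotypes. *Pfkl*, *Pfkp* and *Pkm* were higher in all 3 FXR-/- libraries than in any FXR+/+ library (7.69% of members, beside 8.02% of tested genes). *Glud1* was lower in all 3 (2.56%, beside 7.37% of tested genes). With the libraries scaled by library size alone, *Pfkp* and *Pkm* were still higher in all 3, *Pfkl* and *Glud1* overlapped, and *Eno1*, *Eno3*, *Idh3b* and *Pdhb* were lower in all 3 FXR-/- libraries. By that scaling 5.13% of members and 4.25% of tested genes were higher without overlap, and 10.3% of members and 7.24% of tested genes lower. With 3 libraries against 3, the smallest p of an exact two-sided permutation test is 0.1.

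**Figure D1:**
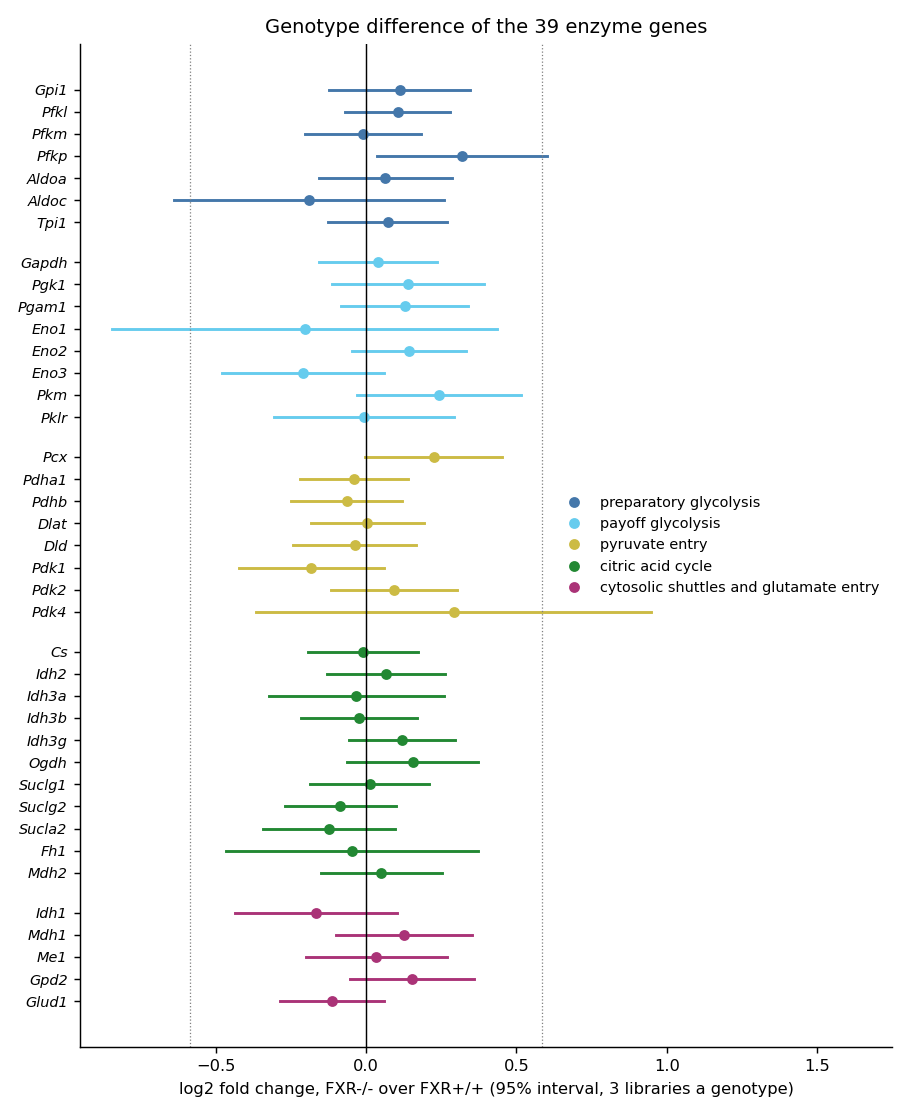
Log2 fold change of each of the 39 members, FXR-/- over FXR+/+, with its 95% interval from the edgeR fit (x axis), grouped and coloured by role. Dotted lines mark 1.5-fold in either direction. All intervals except that of *Pfkp* include 0, and 35 of 39 lie between the dotted lines.

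The preparatory phase was represented by 7 genes, of which 5 had values above 0 and 2 below, with log2 fold changes from -0.19 (*Aldoc*) to 0.32 (*Pfkp*). Phosphofructokinase, which commits sugar to glycolysis, is built from liver (*Pfkl*), muscle (*Pfkm*) and platelet (*Pfkp*) subunits. *Pfkp* was at 28.1, 26.6 and 22.3 CPM (gene counts scaled to library size after TMM) in FXR+/+ female 1, male 1 and male 2 and at 29.0, 34.5 and 32.4 CPM in the FXR-/- libraries of the same names. All FXR-/- values were above all FXR+/+ values, by a small margin in the females (1.03-fold) and by 1.30-fold and 1.46-fold in the males. The fitted log2 fold change was 0.32 ± 0.12 (SE), the largest among the members, with an unadjusted p of 0.0317 and an adjusted p of 0.458 in edgeR's quasi-likelihood test. Its unadjusted p was above 0.05 when any 1 of the 4 male libraries was left out, with log2 fold changes between 0.21 and 0.35.

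Some markers of other cell types were also higher in FXR-/- at an unadjusted p under 0.05, and 0 at an adjusted p under 0.05 (edgeR). Of 6 endothelial markers, 4 were higher in FXR-/- at an unadjusted p under 0.05, and the list summed to 437 to 519 CPM in FXR+/+ and 538 to 867 CPM in FXR-/-. Of 8 macrophage markers 4 were higher, with sums of 111 to 149 CPM in FXR+/+ and 148 to 175 CPM in FXR-/-, and of the 6 ductal markers that were tested 3 were higher, while the sum of the ductal list overlapped between the genotypes, at 251 to 301 CPM in FXR+/+ and 267 to 299.4 CPM in FXR-/-. No endothelial, macrophage or ductal marker was at 0 in all libraries. With a term for acinar RNA in the fit, the log2 fold change of *Pfkp* was 0.25 (adjusted p = 0.613, edgeR). The part of these cell types in the *Pfkp* values was not tested.

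*Pfkl* was at 67.9, 69.0 and 68.6 CPM in FXR+/+ and 70.4, 78.5 and 72.5 CPM in FXR-/-. The FXR+/+ values were within about 1 CPM of each other, and the log2 fold change was 0.11 ± 0.07 (SE; adjusted p = 0.596, edgeR), but 0.01 with library size alone and -0.04 with exon counts summed per gene. *Pfkm*, the most abundant of these subunits per length, had a log2 fold change of -0.01 ± 0.08. *Aldoa* (aldolase A, which cleaves fructose 1,6-bisphosphate) was at 371, 369 and 354 CPM in FXR+/+ and at 347, 407 and 391 CPM in FXR-/-. Its genotypes overlapped, since FXR-/- female 1 was the lowest of the 6 libraries. *Gpi1* (glucose-6-phosphate isomerase) and *Tpi1* (triosephosphate isomerase) had log2 fold changes of 0.11 ± 0.10 and 0.07 ± 0.08. *Aldoc*, the brain-type aldolase, was spread widely, from 11.3 to 17.9 CPM in FXR+/+ and from 10.6 to 15.7 CPM in FXR-/-.

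The payoff phase was represented by 8 genes, with log2 fold changes from -0.21 (*Eno3*) to 0.24 (*Pkm*). Their summed level was 1078 to 1113 CPM in FXR+/+ and 1159 to 1321 CPM in FXR-/-, which did not overlap. By library size alone the sums were 1056 to 1192 and 1178 to 1246 CPM, which overlapped. *Pkm*, which encodes the M forms of pyruvate kinase, the last enzyme of glycolysis, made up much of this sum. Without *Pkm* the sums overlapped, at 385 to 419 CPM in FXR+/+ and 401 to 449 CPM in FXR-/-.

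By counts as assigned, *Pkm* was the most abundant of the 39 genes. It held 16.96% to 18.9% of their summed CPM in FXR+/+ and 19.7% to 20.3% in FXR-/-. It was at 720, 694 and 660 CPM in FXR+/+ and 758, 873 and 826 CPM in FXR-/-. Every FXR-/- library was above every FXR+/+ library, and the difference was smallest between the females (1.05-fold, against 1.26-fold and 1.25-fold in the males). The log2 fold change was 0.24 ± 0.12 (SE), with an adjusted p of 0.491 in edgeR and 0.272 in DESeq2. Over the 20 alternative fits it ranged from 0.15 with library size alone to 0.33, and the adjusted p from 0.272 to 0.891.

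*Pkm* makes M1 and M2 pyruvate kinase by including 1 of 2 mutually exclusive exons of equal length, and a count over the whole gene cannot separate them. M1 is a constantly active enzyme, while M2 is regulated by metabolites. The 2 exons are printed because the counts below rest on them. They lie on the plus strand of chromosome 9 in GRCm38, as exons of annotated GENCODE transcripts of *Pkm* (M1, chr9:59675029-59675195, and M2, chr9:59675568-59675734). Both are coding exons of 167 bases, identical at 103 positions (61.7%), and capitals mark the 64 bases that differ between them.
M1 exon: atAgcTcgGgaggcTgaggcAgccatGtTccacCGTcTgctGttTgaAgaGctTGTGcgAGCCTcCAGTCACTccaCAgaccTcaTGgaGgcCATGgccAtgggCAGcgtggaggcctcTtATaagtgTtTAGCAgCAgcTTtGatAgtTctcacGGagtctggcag
M2 exon: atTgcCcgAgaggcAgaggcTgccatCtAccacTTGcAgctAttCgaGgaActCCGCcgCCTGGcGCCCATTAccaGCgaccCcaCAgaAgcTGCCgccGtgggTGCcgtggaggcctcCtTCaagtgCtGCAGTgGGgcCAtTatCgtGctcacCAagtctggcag

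Transcripts with either exon were present in the islets of both genotypes. In FXR+/+ female 1, male 1 and male 2 the M1 exon held 109, 85 and 141 counts, against 135, 118 and 106 in the FXR-/- libraries. For the M2 exon the counts were 74, 77 and 98 in FXR+/+ against 97, 73 and 82 in FXR-/-. M1 counts exceeded M2 counts in all 6 libraries, though the exons differ in sequence and their counts were not calibrated against each other.

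The share of the M1 exon among counts on the 2 exons was 57.0% ± 3.9 (SD, n = 3) in FXR+/+ and 58.8% ± 2.7 (SD, n = 3) in FXR-/-. The difference of 1.78 percentage points had a p of 0.7 in an exact two-sided permutation test, whose smallest possible p here is 0.1. The 95% interval of the difference, from the spread between libraries, ran from -5.93 to 9.48 points. The Wilson intervals of single libraries, which cover counting error only, spanned from 44.8% to 68.4% in all. The interval of the difference included 0 and did not resolve its sign. Short exons held few counts in the deposited exon table: exons of members from 150 to under 300 bases, the class of both *Pkm* exons, made up 28.6% of exon bases but 8.81% of exon counts.

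**Figure D2:**
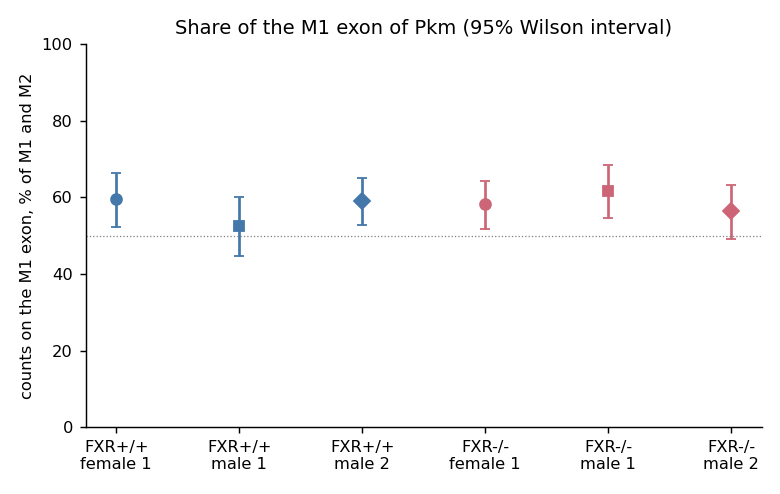
Counts on the M1 exon of *Pkm* as a percentage of counts on the M1 and M2 exons (y axis) in each of the 6 libraries, with 95% Wilson intervals for counting error. Each interval overlaps every other one, and the shares run from 52.5% to 61.8%.

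*Pklr*, the liver and red cell pyruvate kinase, was at 19.5, 20.02 and 18.5 CPM in FXR+/+ and 22.04, 15.8 and 20.2 CPM in FXR-/-. Its mean was 19.3 CPM in both genotypes, and only the spread was wider in FXR-/- (SD 0.756 against 3.21 CPM, n = 3 each; the spreads were not compared by a test). Of the enolases, which make phosphoenolpyruvate, *Eno2* (the neuronal form) had a log2 fold change of 0.14 ± 0.08 and *Eno3* (the muscle form) one of -0.21 ± 0.12. Neither passed the test (adjusted p = 0.537 and 0.533, edgeR), and the genotypes of both overlapped. The remaining payoff genes, *Gapdh*, *Pgk1*, *Pgam1* and *Eno1*, had log2 fold changes of 0.04 ± 0.08, 0.14 ± 0.11, 0.13 ± 0.09 and -0.20 ± 0.27.

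The exon table gave a finer view of the same genes. Of 83 exons of 38 members that passed the filter on low counts, 0 had an adjusted p under 0.05, beside 0.0185% of all tested exons, in edgeR's quasi-likelihood test. At an unadjusted p under 0.05 there were 3 (3.61%), beside 7.79% of all tested exons. These were exons 1 and 2 of *Eno3*, with log2 fold changes of -0.69 ± 0.26 and -0.53 ± 0.24, and exon 2 of *Pgam1*, with 0.48 ± 0.18. The test of single exons was added after the data were seen.

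At the entry of pyruvate into mitochondria, 4 of 8 genes had values above 0 and 4 below. *Pcx*, the mitochondrial pyruvate carboxylase that refills the cycle with oxaloacetate, was the most abundant. It was at 152, 138 and 166 CPM in FXR+/+ and 189, 166 and 180 CPM in FXR-/-. The genotypes overlapped only through FXR+/+ male 2 and FXR-/- male 1, and within each pair FXR-/- was higher, by 1.24-fold, 1.203-fold and 1.08-fold. The log2 fold change was 0.23 ± 0.10 (SE), with an unadjusted p of 0.0515 and an adjusted p of 0.48 (edgeR). With the replicate block the unadjusted p was 0.0254 and the adjusted p 0.253, and with a term for acinar RNA the log2 fold change was 0.31 (adjusted p = 0.327).

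Of the pyruvate dehydrogenase complex, 4 subunit genes were members, and their log2 fold changes were close to 0. *Pdha1* and *Pdhb*, the E1 subunits, had log2 fold changes of -0.04 ± 0.08 and -0.06 ± 0.08. *Dlat* (E2) and *Dld* (E3) had 0.005 ± 0.080 and -0.04 ± 0.09. Within each library *Pcx* had 1.70 to 1.95 times the counts of *Pdha1* in FXR+/+ and 1.93 to 2.36 times in FXR-/-, ratios of counts that are not corrected for length.

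The pyruvate dehydrogenase kinases switch the complex off by phosphorylation. *Pdk4*, a kinase induced by fasting in many tissues, was at 47.7, 45.9 and 19.6 CPM in FXR+/+ and 59.5, 45.5 and 33.8 CPM in FXR-/-. The genotypes overlapped, and male 2 was the lowest library in both. Its log2 fold change was 0.29 ± 0.28 (adjusted p = 0.689, edgeR), and with the replicate block it was 0.36, with an unadjusted p of 0.0298 and an adjusted p of 0.265. The value rested on single libraries: it was 0.02 without FXR+/+ male 2 and 0.70 without FXR+/+ male 1, and 0.03 with a term for acinar RNA. *Pdk1* had a log2 fold change of -0.18 ± 0.10 and *Pdk2* of 0.09 ± 0.09.

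Immediate early and clock genes also differed between libraries. The 9 immediate early genes, which respond to handling and stress, summed to 209 CPM in FXR+/+ male 2 and to 2779 and 4954 CPM in the other FXR+/+ libraries, and 0 of 9 had an unadjusted p under 0.05. In FXR-/- female 1, male 1 and male 2 the sums were 1103, 6413 and 2512 CPM, so *Pdk4* was lowest with the lowest sum in FXR+/+ and highest with the lowest sum in FXR-/-. Of 15 genes of the circadian clock, 3 were higher and 6 lower in FXR-/- at an unadjusted p under 0.05, and 0 at an adjusted p under 0.05 (edgeR). *Arntl*, a core clock activator, was at 10.7, 3.57 and 2.30 CPM in FXR+/+ and 22.1, 30.2 and 22.2 CPM in FXR-/-. The time of day of collection was not given in the sources used here, and the part of the clock or of handling in the values of the members was not tested.

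The citric acid cycle was represented by 11 genes, and all of their 95% intervals lay within 1.5-fold. Log2 fold changes ran from -0.12 (*Sucla2*) to 0.16 (*Ogdh*), with a median of -0.01. Their summed level was 886 to 972 CPM in FXR+/+ and 866 to 999.8 CPM in FXR-/-. *Ogdh*, the E1 subunit of the oxoglutarate dehydrogenase complex, was the most abundant, at 197, 199 and 235 CPM in FXR+/+ and 208, 254 and 242 CPM in FXR-/-. FXR+/+ male 2 lay among the FXR-/- values, and the log2 fold change was 0.16 ± 0.09 (adjusted p = 0.552, edgeR).

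*Cs* (citrate synthase, the entry of acetyl-CoA) had a log2 fold change of -0.01 ± 0.08, from 59.8 to 65.8 CPM over all 6 libraries. The mitochondrial isocitrate dehydrogenases *Idh2* (NADP), *Idh3a*, *Idh3b* and *Idh3g* (the subunits of the NAD enzyme) ranged from -0.03 to 0.12. *Suclg1*, *Suclg2* and *Sucla2*, the subunits of succinyl-CoA ligase, ranged from -0.12 to 0.01, and *Mdh2*, the mitochondrial malate dehydrogenase, had 0.05 ± 0.09. *Fh1*, fumarate hydratase, differed more between libraries of 1 genotype than between genotypes. It was at 66.2, 62.3 and 105 CPM in FXR+/+ and at 60.6, 89.3 and 76.9 CPM in FXR-/-, and was singled out after its values were seen. Its log2 fold change was -0.05 ± 0.18, and 0.18 without FXR+/+ male 2.

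The cytosolic shuttles and the entry of glutamate were represented by 5 genes, with log2 fold changes from -0.17 (*Idh1*) to 0.15 (*Gpd2*). *Mdh1*, the cytosolic malate dehydrogenase of the malate-aspartate shuttle, was the most abundant, at 168, 166 and 196 CPM in FXR+/+ and 167, 211 and 201.8 CPM in FXR-/-, so the females were alike and the groups overlapped. *Gpd2*, the mitochondrial enzyme of the glycerol phosphate shuttle, was at 94.2, 106 and 116 CPM in FXR+/+ and 119, 117 and 115 CPM in FXR-/-. The FXR-/- values were close together (SD 1.68 CPM) at the level of the highest FXR+/+ library, and the log2 fold change was 0.15 ± 0.09 (adjusted p = 0.538, edgeR).

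*Glud1*, the glutamate dehydrogenase that feeds oxoglutarate into the cycle and whose activating mutations cause excess insulin release, was at 125, 118 and 122 CPM in FXR+/+ and 116, 115 and 107 CPM in FXR-/-. It was the one member whose FXR-/- values were all below the FXR+/+ values, which held after TMM scaling and not with library size alone. Its log2 fold change was -0.11 ± 0.07 (adjusted p = 0.572, edgeR). *Idh1*, the cytosolic NADP isocitrate dehydrogenase, was at 42.2, 35.2 and 45.3 CPM in FXR+/+ and 39.8, 32.8 and 37.0 CPM in FXR-/-, lower within each pair and overlapping between the groups. *Me1*, the cytosolic malic enzyme, was at 19.5, 15.7 and 17.4 CPM in FXR+/+ and 20.2, 16.3 and 17.6 CPM in FXR-/-, and was 1.01-fold to 1.03-fold higher in FXR-/- in each pair.

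**Figure D3:**
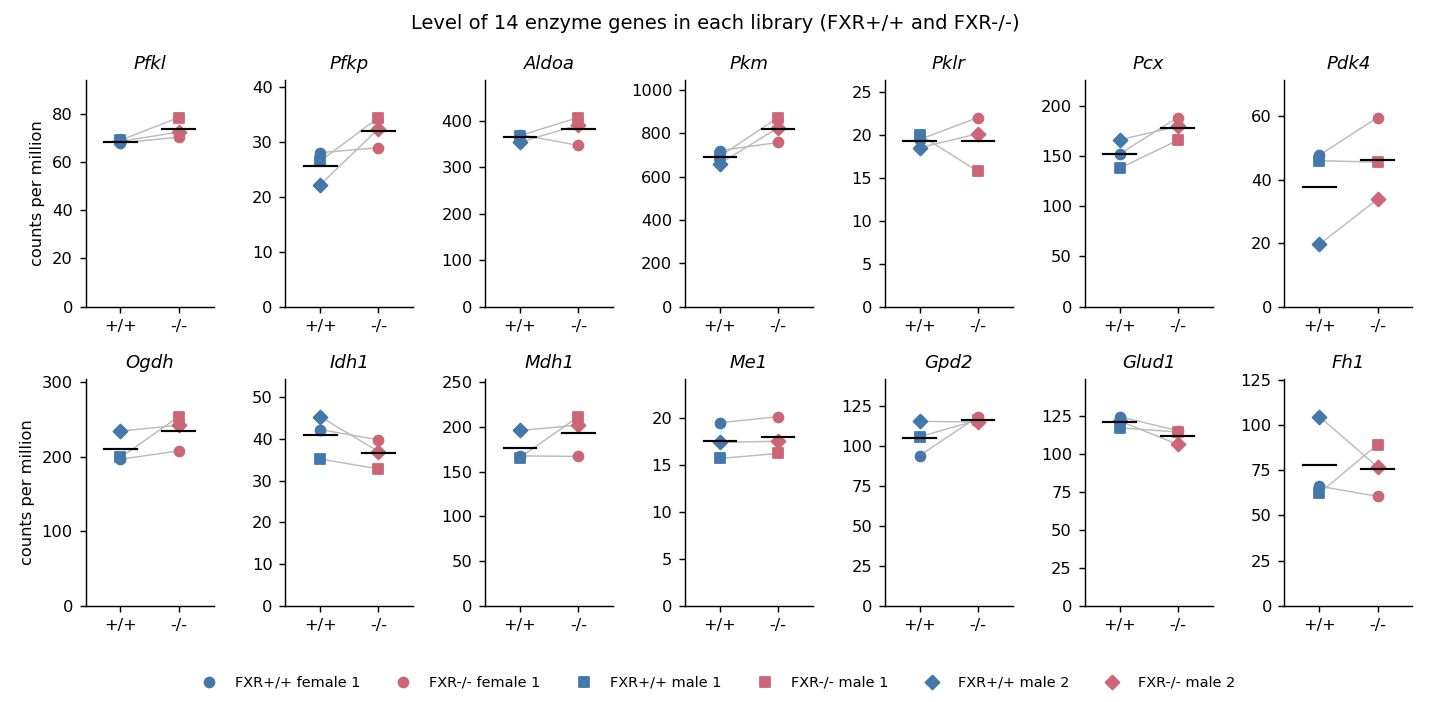
Level of 14 members in each library, in CPM after TMM scaling (y axes from 0), for FXR+/+ and FXR-/-. Symbols mark female 1, male 1 and male 2, grey lines join libraries of the same number and black bars are means. *Pfkl*, *Pfkp*, *Pkm* and *Glud1* do not overlap between the genotypes, and *Pdk4* and *Fh1* have 1 FXR+/+ library far from the others.

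Per length, *Pkm*, *Aldoa*, *Pfkm* and *Idh2* led their families in both genotypes. Levels between genes were compared as CPM per kilobase of annotated exon. *Pkm* was at 138 ± 6.1 in FXR+/+ and 164 ± 12 in FXR-/- (SD, n = 3), while *Pklr* was at 5.98 ± 0.23 and 5.97 ± 0.99. *Pkm* held 95.9% of the level of the pair in FXR+/+ and 96.5% in FXR-/-. *Aldoa*, at 125 ± 3.0 in FXR+/+, was the second most abundant member and held 96.4% of the aldolase level, with *Aldoc* at 4.72 ± 1.1.

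Phosphofructokinase was mixed. Over the union of exons *Pfkm* held 64.0% ± 1.0 of the level in FXR+/+ and 61.5% ± 2.4 in FXR-/- (SD, n = 3). *Pfkl* held 30.3% and 31.7%, and *Pfkp* 5.65% ± 0.68 and 6.82% ± 0.38. The shares depended on the length used. Over the longest transcript they were 54.1% for *Pfkm*, 39.55% for *Pfkl* and 6.36% for *Pfkp* in FXR+/+, in the same order. *Pfkp* was thus the member with the largest log2 fold change and the scarcest subunit, at 1.91 ± 0.23 CPM per kilobase in FXR+/+ and 2.39 ± 0.21 in FXR-/-. Of the isocitrate dehydrogenases, *Idh2* led at 47.3 ± 4.6 in FXR+/+, followed by *Idh3g* at 28 ± 1.7, *Idh3b* at 14.9 ± 0.35 and *Idh1* at 14.8 ± 1.9, which did not differ beyond their spread by this length, and *Idh3a* at 8.28 ± 1.1. Over the longest transcript *Idh3b* (24.8 ± 0.58) was above *Idh1* (17.8 ± 2.3) in FXR+/+ by more than their spread, and *Idh1* and *Idh3a* were level in FXR-/- (15.9 ± 1.5 each).

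Within succinyl-CoA ligase, *Sucla2* at 13.8 ± 1.3 and *Suclg1* at 12.9 ± 0.12 did not differ beyond their spread in FXR+/+, and *Suclg2* was at 9.86 ± 0.22. In FXR-/- *Suclg1* was at 13.0 ± 1.4 and *Sucla2* at 12.6 ± 0.72, and over the longest transcript *Sucla2* (22.6 ± 1.3) was above *Suclg1* (21.7 ± 2.4), within the spread either way. In FXR+/+ the order within 2 families depended on the length used. *Eno3* was above *Eno2* over the union of exons (11.3 ± 0.91 and 8.77 ± 1.0 in FXR+/+) and below it over the longest transcript (12.5 ± 1.0 and 14.8 ± 1.8). In FXR-/- both were at 9.72 to 9.73 over the union of exons. *Pdk4* was above *Pdk2* over the union of exons (10.8 ± 4.5 and 8.86 ± 0.58) and below it over the longest transcript (10.8 ± 4.5 and 12.5 ± 0.81), within the spread of *Pdk4* either way. *Pdk1*, at 4.41 ± 0.18 over the union of exons, had the lowest mean of these kinases by both lengths. In FXR+/+ male 2 *Pdk4* was below it over the longest transcript (5.63 and 6.92). *Pdk3* was not among the members.

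**Figure D4:**
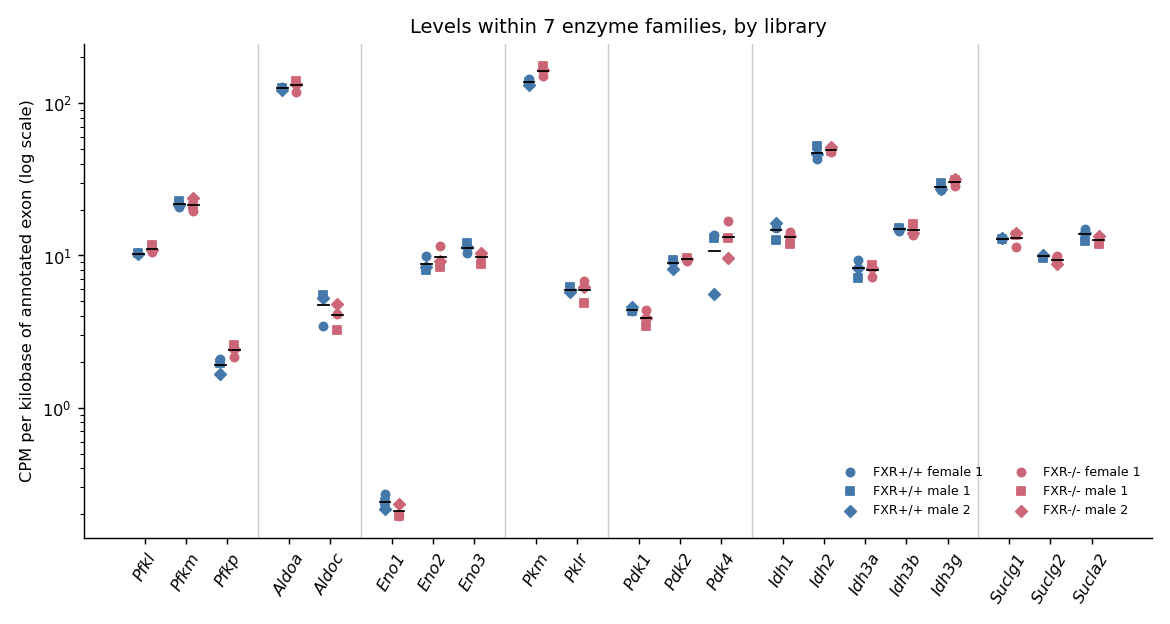
CPM per kilobase of annotated exon (log scale) of the genes of 7 enzyme families in each library, FXR+/+ in blue and FXR-/- in red, with black bars at the means. *Pkm* and *Aldoa* are more than 10 times above *Pklr* and *Aldoc*.

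Some levels are uncertain because other genes carry the same sequence. The longest coding transcript of each member was cut into windows of 100 bases, and 24 members shared no window with any other annotated gene and 15 did. Other transcripts of the members were not checked. The share was 78.0% for *Gapdh*, with 86 genes, 67.0% for *Pgk1*, 59.0% for *Eno1* and 39.7% for *Pgam1*, mostly with processed copies. The ranks of *Pkm* and *Aldoa* among the members therefore hold only for counts as assigned. The count table also lists *Gm12070*, a copy of *Gapdh*, with 1129, 1302 and 1611 counts in FXR+/+ against 1271, 1626 and 1740 in FXR-/-. *Gapdh* itself had 1622, 1445 and 2048 counts in FXR+/+ against 1595, 1408 and 1728 in FXR-/-. The summed level of both was 116 to 136 CPM in FXR+/+ and 116 to 160 CPM in FXR-/-.

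*Eno1* had 20 to 37 counts a library while *Eno1b*, which shares 58.6% of its windows, had 155 to 242, so the low level of *Eno1* and the order within the enolases are uncertain. *Pfkp* shared 16.0% of its windows with *Pitrm1*, *Pklr* 21.8% with *Hcn3* and *Pdha1* 12.0% with *Map3k15*, genes that the annotation places beside them. How reads in such stretches were assigned is not given in the sources used here. *Pfkl*, *Pfkm*, *Aldoa*, *Pcx*, *Cs*, *Ogdh* and *Mdh1* were among the members with no shared window.

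The effect of genotype was compared between the sexes, with 1 female library a genotype. The interaction of genotype and sex had an adjusted p under 0.05 for 0 of 39 members, beside 0% of all tested genes (edgeR). At an unadjusted p under 0.05 there was 1 member, beside 1.48% of all tested genes. This was *Idh3a*, which was at 47.4, 36.2 and 42.3 CPM in FXR+/+ and 36.7, 44.1 and 42.2 CPM in FXR-/-, lower in the FXR-/- female and higher or level in the males.

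The spread between libraries of a genotype differed among the members. The SD of log2 CPM within a genotype was 0.59 for *Pdk4*, 0.35 for *Fh1* and 0.33 for *Aldoc*, and 0.21 or lower for the other 36. It was lowest for *Glud1*, *Pdha1* and *Pfkl*, at 0.06 each.

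**Figure D5:**
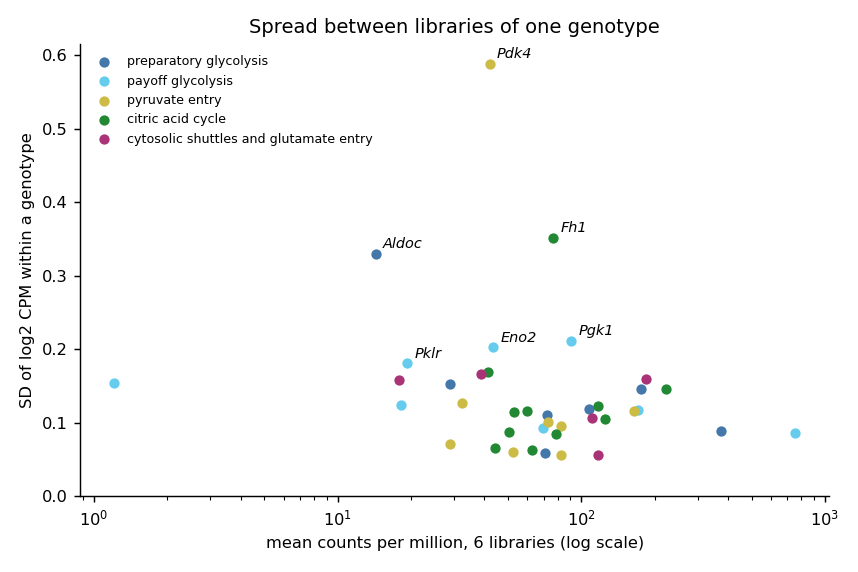
SD of log2 CPM among the libraries of a genotype (y axis, pooled over both genotypes) against the mean level over 6 libraries (x axis, log scale) for the 39 members, coloured by role. *Pdk4*, *Fh1* and *Aldoc* lie above the rest.

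The neighbours of these enzymes were not called either. Their list of glucose uptake and phosphorylation had 8 of 10 tested genes above 0, with a median log2 fold change of 0.28. Its summed level was not higher, at 2432 to 2617 CPM in FXR+/+ and 1835 to 2491 CPM in FXR-/-, which overlapped. Medians of the other lists of neighbours ran from -0.06 to -0.004. Of 58 other genes of the pathways (transporters, hexokinases, regulators, the remaining cycle and shuttle genes), 55 were tested and 0 had an adjusted p under 0.05 in edgeR, 29 had values above 0, and 1 was higher and 1 lower at an unadjusted p under 0.05. *Glul*, glutamine synthetase, was at 528, 561 and 585 CPM in FXR+/+ and 503, 439 and 432 CPM in FXR-/-, with no overlap. Its log2 fold change was -0.29 ± 0.11 (unadjusted p = 0.0321, adjusted p = 0.458, edgeR). *G6pc3*, a glucose-6-phosphatase found in most tissues, was at 32.0, 31.6 and 33.7 CPM in FXR+/+ and 32.8, 42.0 and 39.6 CPM in FXR-/-, overlapping through FXR-/- female 1 (log2 fold change 0.23 ± 0.09, unadjusted p = 0.0453, adjusted p = 0.478, edgeR).

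*Slc2a2*, the GLUT2 transporter that carries glucose into beta cells, had a log2 fold change of 0.004 ± 0.153 (adjusted p = 0.992, edgeR). *Ldha*, lactate dehydrogenase A, which beta cells keep low, was at 12.7, 25.0 and 11.1 CPM in FXR+/+ and 16.5, 28.4 and 16.4 CPM in FXR-/-. It was highest in the male 1 library of both genotypes. These libraries also had the most acinar RNA and the highest immediate early sum of their genotype (4954 CPM in FXR+/+ and 6413 CPM in FXR-/-). The part of either in the *Ldha* values was not tested. Of 14 tested genes induced by hypoxia outside glycolysis, 1 was higher (*Ndrg1*, 0.33 ± 0.10) and 1 lower (*Kdm3a*, -0.22 ± 0.09) at an unadjusted p under 0.05, and 0 at an adjusted p under 0.05.

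The remaining lists describe what else the islets held. Of the 9 beta cell markers, 2 were higher in FXR-/- at an unadjusted p under 0.05, *Mafa* by 0.57 ± 0.09 and *Nkx6-1* by 0.38 ± 0.14 on the log2 scale (adjusted p = 0.217 and 0.457, edgeR). None of 6 alpha cell, 3 delta cell, 22 acinar, 8 stellate and fibroblast, 4 tested striated muscle and 1 tested erythroid genes had an unadjusted p under 0.05, and 2 of 5 glial genes were higher. The acinar and the stellate and fibroblast markers had median log2 fold changes of 0.44 and 0.74, with 21 of 22 and 8 of 8 above 0. The part of these shifts in the levels of the enzymes was not tested. With a term for acinar RNA in the fit, 0 of 39 members were called, as without it, and single values moved, such as that of *Gpi1* from 0.11 to 0.03 on the log2 scale.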

How the data were processed

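Tables of the whole islet RNA-seq series were analysed again. Per the labels, genotype, sex and age were assigned. The authors deposited whole-number counts per gene and per exon without normalisation; HISAT is listed in the submitters' processing notes, and the counting rule and strand setting are not given in the sources used here. The exon table held 32.3% to 36.6% of the gene counts. The deposited comparison of the genotypes (fold changes, p-values) was not used. No per-sample column was left unused.

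The test of gene counts used edgeR 4.0.16 under R 4.3.3 (filterByExpr with minimum count 10 and minimum total 15, TMM, glmQLFit and glmQLFTest, terms for sex and genotype, all 6 libraries, 3 residual and 4.43 prior degrees of freedom), with Benjamini-Hochberg adjustment over 14619 genes and a threshold of 0.05. The 95% intervals came from the same fit. Levels per length and shared windows of 100 bases used GENCODE vM21 (GRCm38), both strands. Scripts were tested on simulated data. The alternatives were no sex term, a replicate block, males alone, DESeq2 1.42.0, other dispersion estimates, scalings and filters, summed exon counts, counts without the 20 most abundant genes, an acinar term and each library left out. Replicate numbers in the labels were checked for pairing: deviations from the genotype means correlated at 0.361, 0.367 and 0.323 between libraries of the same number and at 0.0200 or below otherwise, and what the number marks is not stated. The deviations cancel out over the libraries of a genotype, so these correlations depend on each other. Female 1 is the only female library of each genotype, so its match cannot be told apart from sex.

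The members and gene lists were chosen with earlier results of these data known. Values in every library are given for members with an unadjusted p under 0.05, those with the largest change or level in each role, and *Pkm*, *Pklr*, *Pcx*, *Gpd2*, *Glud1*, *Pfkl*, *Pdk4* and *Me1*. Of the other pathway genes, those with an unadjusted p under 0.05, *Slc2a2* and *Ldha* are named, and 1 further gene of the rule is not reported here.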

Additional observations from a re-analysis of the deposited data

How the results depend on the processing

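In the 20 alternative fits, 0 of 39 members were called, and the lowest adjusted p of a member was 0.231. The count of all genes called was 0 as reported and 23 with the replicate block (the pairing), 158 with DESeq2, 4 with exon counts summed per gene and 5 with the acinar term. The count of members with an unadjusted p under 0.05, 1 as reported, was 2 without the sex term, with upper quartile scaling, with at least 10 counts in every library and with summed exon counts, 3 with the replicate block and with DESeq2, 0 with library size alone, and 0 to 2 with a library left out. The median log2 fold change of the members was -0.061 with library size alone, and otherwise moved by less than the spread of 0.045 between pairs. Of 779 member values in the alternatives, 60 had another sign than the reported value, and 8 of these were beyond 1 SE of 0 in either fit. These were *Idh3a* (0.14 with males alone, -0.15 to 0.14 with a library left out), *Fh1* (-0.25 to 0.18 with a library left out), *Pdk2* (-9.0e-05 with library size alone) and, with summed exon counts, *Pfkl* (-0.042), *Pfkm* (0.18) and *Idh3g* (-0.057). The cause was not tested. The difference in the M1 share of *Pkm* was -0.495 to 3.05 points with a library left out. Leaving out a female library removes the only female contrast, so those fits rest on the males. *Eno1*, with 20 to 37 counts a library, and the *Pkm* exons rest on few counts.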
